A study of Mus musculus with 4 samples.

Results

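The genes described here are 9 keratin genes (Krt7, Krt8, Krt18, Krt19, Krt20, Krt23, Krt14, Krt17 and Krt80) and the vimentin gene Vim, which were chosen by name and found by their symbols on the array. All 10 were measured, of 19938 genes in all. Both groups are cancer cell lines grown from digested mouse pancreatic tumors, without treatment, and each line was profiled on 1 Affymetrix Mouse Gene 1.0 ST array. The TPAC lines, K459 and TCPA18654, carry the transgene Ela-TGFa, the Cre allele Ptg1a+/CRE, Trp53fl/fl and p65fl/fl. The TPC lines, TPC18645 and TPC20223, carry the same alleles without p65fl/fl, so both groups share TGF-α under an elastase promoter and the floxed p53 gene, and p65 (RelA) is the allele that differs. No cell sorting is named in the sources used here, and the mice behind each line are not given. Tests therefore measure the spread between these lines, with n = 2 lines per genotype.

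Keratins and vimentin form intermediate filaments, the cytoskeletal cables that carry mechanical load. A keratin filament is built from pairs of a type I and a type II chain, so a cell that makes such filaments needs genes of both types. Krt8 and Krt18 form the standard pair of simple epithelia, Krt7 and Krt19 are typical of ductal epithelium and Krt20 of gastrointestinal epithelium, whereas vimentin forms filaments on its own in mesenchymal cells and is widely made by cells in culture. A cell that loses keratins and adhesion proteins and gains mesenchymal proteins is said to undergo epithelial-mesenchymal transition (EMT).

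Signals are given as the authors' log2 values, on which a difference of 1 is 2-fold. A gene whose mean signal was at or below the 40th percentile of all genes (log2 6.96) is called dim, since the values carry no detection call. Between lines, 2170 to 2243 genes differed at least 2-fold in the 3 pairs that hold TPC20223, so this line stood apart. Between TCPA18654 and TPC18645, which carry different genotype labels, 54 genes did, and the SD of the differences over all genes was 0.21. The sources do not say whether these 2 lines are related, and whether a label is wrong was not tested. All TPAC and TPC values below, and n = 2, take the labels as given. Results are therefore given with and without single lines. Rela, the gene floxed in TPAC mice, had signals of 10.82 in K459 and 11.10 in TCPA18654, against 11.12 in TPC18645 and 10.70 in TPC20223. The array summarises probes across the transcript and the deleted exons are not named in the sources used here, so this does not check the labels. Of the marker lists of other cell types, 9 of 11 measured leukocyte genes, 6 of 8 endothelial, 8 of 12 acinar, 3 of 7 Schwann cell and 4 of 15 fibroblast and stellate genes were dim.

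The promoters of the genes whose signals are described most closely below are shown from RefSeq (GRCm38.p6), each with 250 bases before and 50 after the annotated start site, 5′ to 3′ on the gene's strand. Of the 10 genes, 7 matched the promoter table. Krt18, a type I gene, lies next to Krt8 among the type II genes of chromosome 15 and is read on the other strand. The promoters of this neighboring pair are shown so that both genes can be compared with Krt7, Krt20 and Vim. Capitals mark 3 motifs searched on both strands: CACCTG, an E-box bound by factors such as Snail and Zeb; TATAAA, the TATA box; and the κB motif, to which NF-κB factors such as p65 can bind.
Krt8 (chr15:102004293-102004592, minus strand): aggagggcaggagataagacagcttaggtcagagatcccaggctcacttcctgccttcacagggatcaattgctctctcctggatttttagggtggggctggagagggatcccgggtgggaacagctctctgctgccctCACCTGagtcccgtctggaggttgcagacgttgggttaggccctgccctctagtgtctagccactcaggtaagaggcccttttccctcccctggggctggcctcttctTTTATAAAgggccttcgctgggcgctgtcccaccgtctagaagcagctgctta
Krt18 (chr15:102027966-102028265, plus strand): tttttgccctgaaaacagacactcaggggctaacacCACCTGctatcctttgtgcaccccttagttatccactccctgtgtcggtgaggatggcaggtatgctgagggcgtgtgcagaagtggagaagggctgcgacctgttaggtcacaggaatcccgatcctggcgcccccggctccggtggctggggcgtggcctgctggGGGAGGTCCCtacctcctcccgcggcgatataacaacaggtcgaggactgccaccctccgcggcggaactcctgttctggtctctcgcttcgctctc
Krt7 (chr15:101412153-101412452, plus strand): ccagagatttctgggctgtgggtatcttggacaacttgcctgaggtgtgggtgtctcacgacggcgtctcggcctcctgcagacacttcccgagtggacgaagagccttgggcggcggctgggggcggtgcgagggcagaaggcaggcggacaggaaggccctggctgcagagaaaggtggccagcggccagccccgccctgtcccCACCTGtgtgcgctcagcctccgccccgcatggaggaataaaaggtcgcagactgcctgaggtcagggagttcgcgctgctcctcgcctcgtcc
Krt20 (chr11:99438104-99438403, minus strand): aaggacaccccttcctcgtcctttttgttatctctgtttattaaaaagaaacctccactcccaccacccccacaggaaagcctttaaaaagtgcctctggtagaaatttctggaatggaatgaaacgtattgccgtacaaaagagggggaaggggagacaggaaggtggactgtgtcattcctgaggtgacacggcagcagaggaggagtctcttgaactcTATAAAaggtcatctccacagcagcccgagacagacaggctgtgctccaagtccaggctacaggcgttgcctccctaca
Vim (chr2:13574061-13574360, plus strand): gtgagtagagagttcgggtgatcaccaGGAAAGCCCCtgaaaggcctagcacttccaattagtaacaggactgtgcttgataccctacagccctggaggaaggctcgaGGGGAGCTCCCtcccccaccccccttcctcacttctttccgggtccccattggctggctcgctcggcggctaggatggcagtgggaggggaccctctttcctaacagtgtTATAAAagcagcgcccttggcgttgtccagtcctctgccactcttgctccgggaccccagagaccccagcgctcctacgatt
The E-box was found in 4 of the 7 matched promoters (Krt7, Krt8, Krt18 and Krt23), against 20.2% of 32851 promoters of this length. The κB motif was found in 4 (Krt18, Krt23, Krt14 and Vim), against 8.46% of all promoters. The TATA box was found in 3 (Krt8, Krt20 and Vim), against 13.6%. In Krt8 its copies on the 2 strands overlap and lie across the annotated start site, from base -3 to base 5. In Krt20 it lies at -29 to -24 and in Vim at -32 to -27. In Vim 2 of the 3 κB matches overlap. GGGCGG, the GC box, was found only in Krt7 among the 7 (4 copies; 35.7% of all promoters), and TGACTCA or TGAGTCA, the AP-1 motif, in none (5.2%). The Krt14 entry lies at a start site inside the gene, unlike those of the other 6. A match is a stretch of letters and no binding was measured.

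The filament pair Krt8 and Krt18 was bright in 3 lines and low in TPC20223. Krt8, the type II chain, had log2 signals of 13.72 in K459 and 13.44 in TCPA18654, against 13.33 in TPC18645 and 7.87 in TPC20223. Krt18, its type I partner, had 13.30 in K459 and 13.14 in TCPA18654, against 12.92 in TPC18645 and 6.50 in TPC20223. In TPC20223 the Krt8 signal was 44.0-fold lower than in TPC18645. The Krt18 signal of TPC20223 was itself below the dim level, so its fold is a lower bound taken against that level, at least 62.1-fold lower. In the other 3 lines the signals of Krt8 spanned 0.39 and those of Krt18 spanned 0.38 (K459 minus TPC18645). Both TPAC lines lay above both TPC lines, but the gap between the groups was only 0.11 for Krt8 and 0.22 for Krt18. In bulk RNA, fewer cells with a transcript and less of it per cell cannot be told apart.

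**Figure D1:**
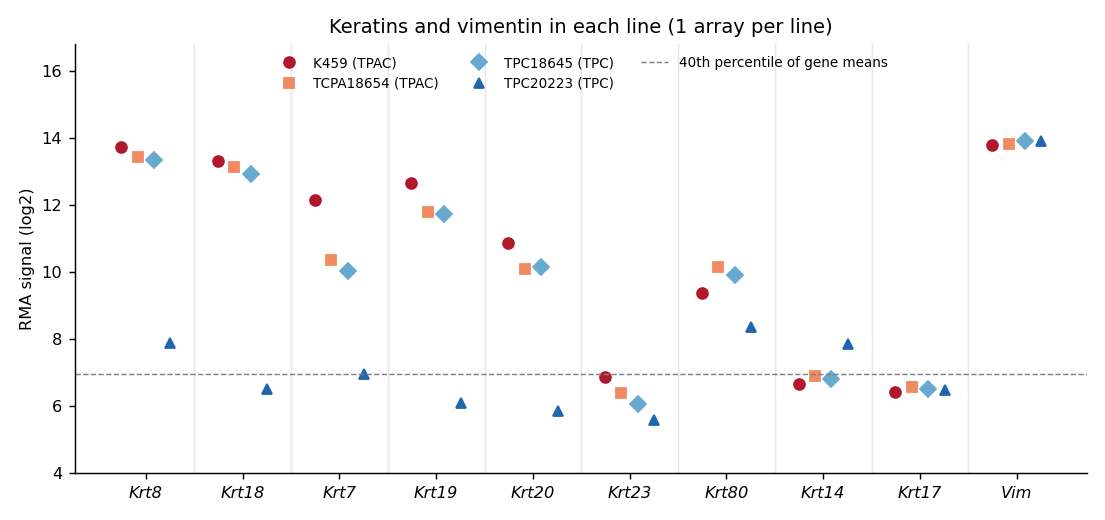
RMA log2 signal (y axis) of the 9 keratin genes and Vim (x axis) in the 4 lines, with 1 point per line and array; red and orange points are the TPAC lines, blue points the TPC lines, and the dashed line is the 40th percentile of gene means (6.96). TPC20223 lies far below the other lines for Krt8, Krt18, Krt7, Krt19 and Krt20, and the 4 points of Vim lie between 13.79 and 13.91.

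The ductal and gastrointestinal keratins were also lowest in TPC20223, and they differed more among the other lines. Krt7, a type II chain of ductal epithelium, had log2 signals of 12.13 in K459 and 10.35 in TCPA18654, against 10.02 in TPC18645 and 6.96 in TPC20223. K459 stood highest for this gene, 3.43-fold above TCPA18654 and 4.32-fold above TPC18645, which lay within 0.33 of each other, and TPC20223 was at least 8.33-fold below TPC18645. Krt19, a short type I keratin of ducts, had 12.65 in K459 and 11.79 in TCPA18654, against 11.74 in TPC18645 and 6.08 in TPC20223. TPC20223 was at least 27.4-fold lower than TPC18645 for Krt19. The groups did not overlap, but the gap was only 0.05. Krt20, a type I keratin of intestinal and gastric epithelium, had 10.87 in K459 and 10.10 in TCPA18654, against 10.15 in TPC18645 and 5.86 in TPC20223, at least 9.11-fold lower than TPC18645. Krt7, Krt19 and Krt20 were also at or below the dim level in TPC20223, so these folds are bounds of the same kind and the log2 differences that rest on this line are not exact. For Krt20 the groups overlapped, since TCPA18654 lay below TPC18645. Thus 5 of the 5 simple epithelial keratins were at least 2-fold lower in TPC20223 than in TPC18645, with a median difference of -5.46, against a median of -0.05 over all genes and 5.28% of all genes lower by this much.

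The remaining keratins varied less, and only part of them shared the low signal of TPC20223. Krt80, a type II keratin of several epithelia, had log2 signals of 9.38 in K459 and 10.15 in TCPA18654, against 9.92 in TPC18645 and 8.34 in TPC20223. Here K459 was the lower TPAC line, unlike for the simple keratins, and TPC20223 was 2.99-fold below TPC18645. Krt23, a type I keratin, was dim, with 6.86 in K459 and 6.39 in TCPA18654, against 6.07 in TPC18645 and 5.57 in TPC20223. Its lines stood in the same order as for Krt7, Krt8, Krt18 and Krt19, at a low level where the size of a difference is not exact.

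Krt14 and Krt17 belong to basal and stressed epithelia. Krt14, a type I chain of basal cells, had log2 signals of 6.64 in K459 and 6.88 in TCPA18654, against 6.81 in TPC18645 and 7.85 in TPC20223. It was the only keratin among the 9 with its highest signal in TPC20223, 2.06-fold above TPC18645. The signals of Krt14 in the other lines lay below the dim level, so this size is not exact. With arrays set to a common median, Krt14 was at 7.815 in TPC20223 and 6.845 in TPC18645, less than 2-fold apart. Krt17, a stress-induced type I chain, was dim and flat, with 6.40 in K459 and 6.55 in TCPA18654, against 6.50 in TPC18645 and 6.48 in TPC20223. Among 7 basal and stress keratins, including Krt5, the partner of Krt14, 6 were dim, and Krt14 alone differed at least 2-fold between TPC20223 and TPC18645.

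Vimentin did not follow the keratins. Vim had log2 signals of 13.79 in K459 and 13.83 in TCPA18654, against 13.89 in TPC18645 and 13.91 in TPC20223. The 4 lines spanned 0.12, against a median range of 0.40 over all genes and 3.41 over the 10 genes described here. The TPC lines lay above the TPAC lines by a gap of 0.06. The highest signals on the arrays were 14.35 to 14.52, and whether a signal of this height still follows the amount of RNA was not tested. The 3 lines with bright Krt8 and Krt18 thus had bright Vim as well.

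Between the genotypes, the 5 simple keratins had higher mean signals in TPAC cells, by 2.48 to 3.51 on the log2 scale, but no difference passed the test. Krt18 averaged 13.22 ± 0.11 in TPAC lines and 9.71 ± 4.54 in TPC lines (SD, n = 2 each), so that they differed by 3.51 (standard error 2.35). Krt7 averaged 11.24 ± 1.26 in TPAC lines and 8.49 ± 2.16 in TPC lines, a difference of 2.75 (standard error 1.30). Krt19 differed by 3.31 (standard error 2.10), Krt8 by 2.98 and Krt20 by 2.48 (standard error 1.60). The SD of the TPC lines was larger than the difference between genotypes for Krt8, Krt18, Krt19 and Krt20, and smaller for Krt7. Krt23 differed by 0.81 (standard error 0.28) and Krt80 by 0.64 (standard error 0.65). Krt14 averaged 6.76 ± 0.17 in TPAC lines and 7.33 ± 0.74 in TPC lines, a difference of -0.57, Krt17 differed by -0.02 and Vim by -0.09 (standard error 0.12). By limma, with Benjamini-Hochberg adjustment over all genes, 0 of the 10 genes passed both limits, an adjusted p of 0.05 and a difference of 0.58 on the log2 scale, and the adjusted p was 0.989 for 9 of them and 0.996 for Krt17. Over all genes 0 passed as well (0.0% in each direction). With the same limit on the difference and an unadjusted limma p under 0.05, 38 of 19938 genes were higher and 46 lower, among them the dim Krt23 (higher). Krt23 no longer passed with arrays set to a common median or under cyclic loess. The test named in the methods called 0 of the 10 genes before and after adjustment. An exact two-sided permutation test of 2 lines against 2 has 6 label assignments and cannot go below p = 0.333.

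Both TPAC lines lay above both TPC lines for 5 of the 10 genes (Krt7, Krt8, Krt18, Krt19 and Krt23), against 13.7% of all genes, and below them for 1 (Vim), against 13.3%. For the other 4 the groups overlapped. Without TPC20223 the same 5 genes and Vim had these orders, against 26.5% of all genes higher and 35.0% lower. Leaving out a line cannot undo such an order, so this outcome was fixed and is no check on it. The sizes, however, depended on TPC20223. Without this line the log2 differences were 0.25 for Krt8, 0.30 for Krt18, 0.48 for Krt19, 0.34 for Krt20 and 1.22 for Krt7. Without TPC18645 they were 5.71, 6.72, 6.14, 4.63 and 4.28 for the same genes, with a lowest adjusted p of 0.0913 by limma for Krt8 and Krt18, and 6 of the 10 genes were higher and 1 lower at an unadjusted p under 0.05 and a difference of 0.58, against 6.36% and 7.9% of all genes. Krt7 was the simple keratin least dependent on TPC20223, but it depended on K459, with a difference of 1.86 without that line. Krt80 was lower in TPAC than in TPC cells without TPC20223, by -0.16, and its difference was 1.43 without TPC18645, 1.02 without K459 and 0.25 without TCPA18654. Krt14 differed by -0.05 without TPC20223 and -1.09 without TPC18645.

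**Figure D2:**
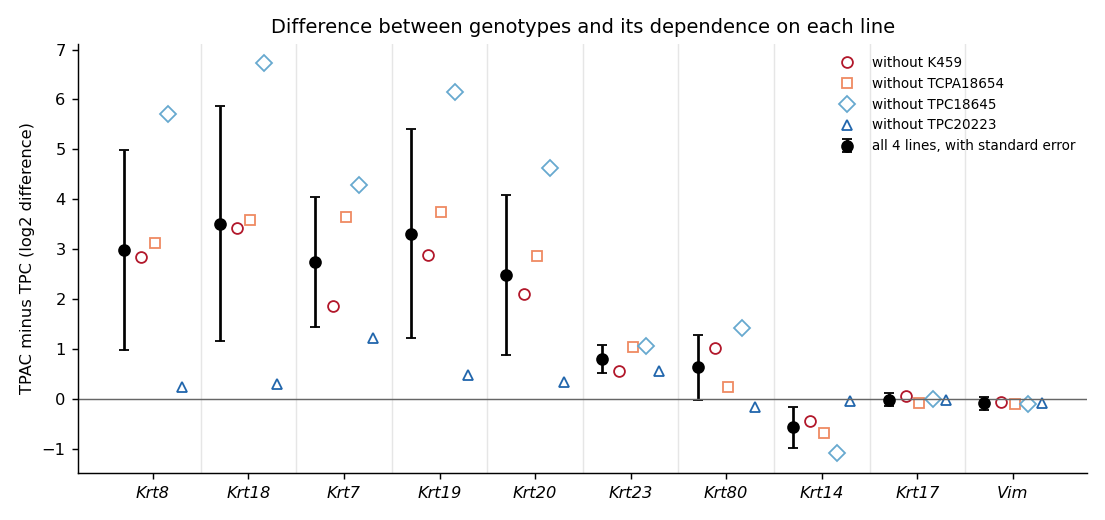
Log2 difference in mean signal, TPAC minus TPC (y axis), for the 9 keratin genes and Vim (x axis). Black points use all 4 lines and bars are limma's standard errors; open symbols leave out 1 line each. Without TPC20223 the differences of Krt8, Krt18, Krt19 and Krt20 shrink to 0.25 to 0.48, and that of Krt7 to 1.22.

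Single pairs of lines, each 1 array against 1 array with no replicate, show where these differences lie. Between K459 and TPC20223, 7 of the 10 genes were at least 2-fold higher in K459 and 1 (Krt14) was lower, against 5.11% and 5.79% of all genes. Between TCPA18654 and TPC20223, 6 were higher in TCPA18654 and 0 lower, against 4.55% and 6.33%. The 2 TPC lines differed as much as TPAC and TPC lines did: 6 genes were lower in TPC20223 than in TPC18645 and 1 was higher, against 5.28% and 5.97%. By contrast, K459 differed from TPC18645 in 1 gene (Krt7, higher in K459; 2.6% of all genes higher and 1.74% lower), and from TCPA18654 also in Krt7 alone (2.62% higher and 1.25% lower). TCPA18654 and TPC18645 differed in 0 of the 10 genes (0.12% and 0.15%), and their largest difference was 0.33, for Krt7.

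The keratin family as a whole was mostly dim. RefSeq lists 54 keratin genes in the mouse, of which 52 were measured here, 27 on chromosome 11 (type I genes) and 25 on chromosome 15 (type II genes and Krt18). Of the 43 keratin genes outside the 9 described, 34 were dim, and 41 had a range under 1 over the 4 lines, with a median range of 0.27. The exceptions were Krt13, a type I keratin of stratified mucosa, and Krt79, a type II keratin. Krt13 had log2 signals of 7.71 in K459 and 7.65 in TCPA18654, against 7.73 in TPC18645 and 6.64 in TPC20223. Krt79 had 7.22 in K459 and 7.92 in TCPA18654, against 7.77 in TPC18645 and 6.62 in TPC20223. Both were lowest in TPC20223, with log2 differences of -1.09 for Krt13 and -1.15 for Krt79 against TPC18645. Their signals in TPC20223 were below the dim level, so these sizes are not exact and may not reach 2-fold. Chromosomal neighbors of the simple keratins were mixed. Krt15, next to Krt19, was at 6.78 in TPC20223 and 6.59 in TPC18645, and Krt78, next to Krt8, at 6.55 and 6.74 in the same lines. Both of these genes were dim, so a lower signal could hardly show in them. Krt80, next to Krt7, was 2.99-fold lower in TPC20223 than in TPC18645. Krt87, on the other side of Krt7, was not dim and was at 7.44 in TPC20223 and 7.52 in TPC18645. Krt12, next to Krt20, was not dim either, at 7.20 and 7.32 in the same lines.

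**Figure D3:**
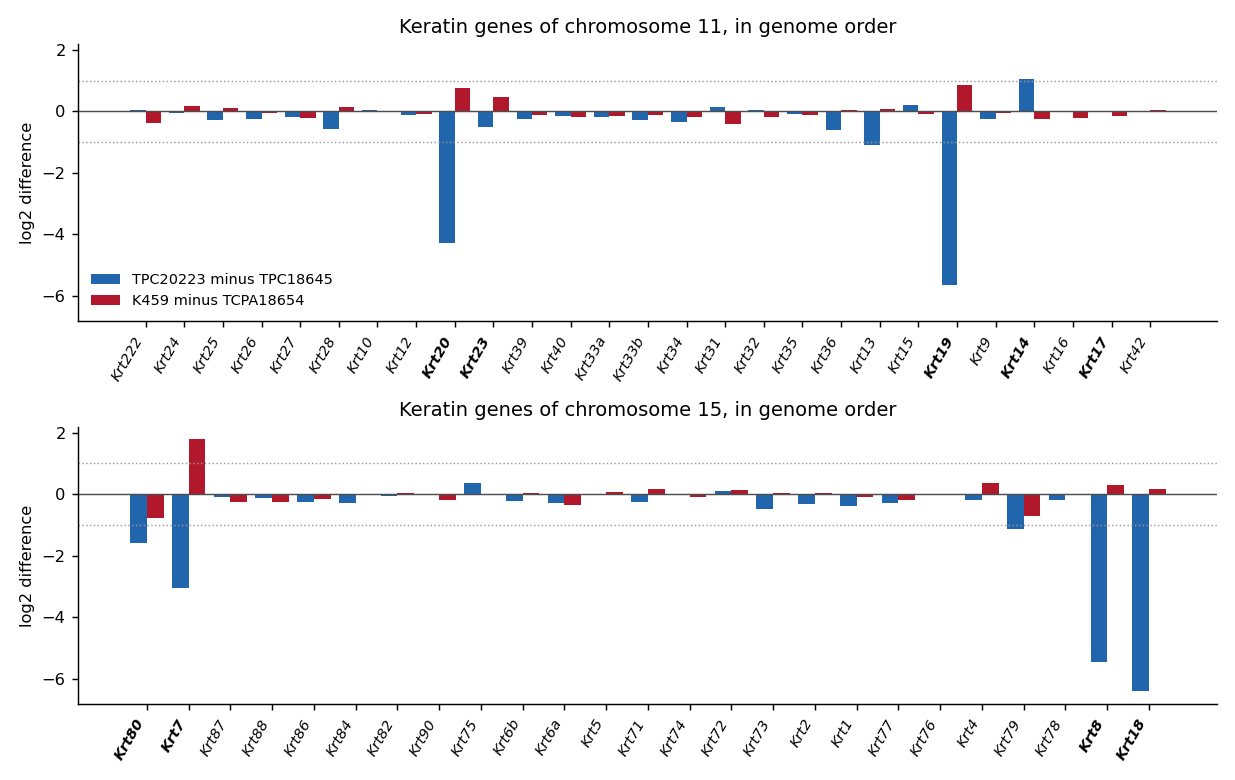
Log2 difference (y axis) of each measured keratin gene in genome order on chromosomes 11 and 15 (x axis), with TPC20223 minus TPC18645 in blue and K459 minus TCPA18654 in red; members described in the text are in bold and dotted lines mark 2-fold. Deep blue bars stand at Krt20, Krt19, Krt7, Krt8 and Krt18, and among the other blue bars only Krt80, Krt14, Krt13 and Krt79 pass 2-fold. Among the red bars only that of Krt7 does.

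Keratin filaments end at desmosomes and hemidesmosomes, and several genes of these junctions were also low in TPC20223. Dsg2, a desmosomal cadherin, had log2 signals of 8.75 in K459 and 9.49 in TCPA18654, against 8.84 in TPC18645 and 5.60 in TPC20223. Desmoplakin (Dsp), which ties keratins to desmosomes, had 10.96 in K459 and 11.43 in TCPA18654, against 11.36 in TPC18645 and 8.80 in TPC20223. Periplakin (Ppl) and integrin β4 (Itgb4), a linker and a hemidesmosome receptor, were at 6.57 and 7.56 in TPC20223, against 9.05 and 9.67 in TPC18645. Dsg2 and Ppl lay below the dim level in TPC20223, so the sizes of their differences from this line are not exact. Of 17 measured anchors and linkers, 7 were at least 2-fold lower in TPC20223 than in TPC18645 and 1 was higher, with a median of -0.46. The higher one was plectin (Plec), which links keratin and vimentin filaments alike, at 10.71 in TPC20223 and 9.71 in TPC18645. For TPAC against TPC cells, 14 of the 17 had higher and 3 lower means, with a median of 0.41 and 0 called by limma. Without TPC20223, 10 had higher means and the median was 0.03.

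Most other intermediate filament genes and genes linked to vimentin differed less than 2-fold between the TPC lines. Of 15 other intermediate filament genes, 2 (Nes and Ina) were at least 2-fold higher in TPC20223 than in TPC18645 and 0 were lower, with a median of 0.25. Ina was dim, so the size of its difference is not exact. Nestin (Nes), which assembles with vimentin, had log2 signals of 9.70 in K459 and 8.25 in TCPA18654, against 8.22 in TPC18645 and 9.86 in TPC20223. Nes was thus high in 1 line of each genotype. Desmin (Des), a muscle filament gene that also marks stellate cells, was dim. Lamin A/C (Lmna) was at 11.50 in TPC20223, against 10.58 to 10.70 in the other lines. Of 12 measured genes listed as linked to vimentin, 3 were at least 2-fold higher in TPC20223 than in TPC18645 and 1 was lower, with a median of -0.06. The higher ones were Nes, Plec and S100a4, the last a calcium-binding protein, at 10.08 in TPC20223 and 9.08 in TPC18645, and the lower one was Fam107a, at 6.54 in TPC20223 and 8.74 in TPC18645. For TPAC against TPC cells the medians were -0.11 for other intermediate filament genes and -0.17 for vimentin-associated genes, with 0 called by limma.

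Regulators of the epithelial and mesenchymal states differed between TPC20223 and TPC18645 alongside the keratins. All 9 measured EMT transcription factor genes were higher in TPC20223, 5 of them at least 2-fold, with a median of 1.32. Foxc2, among these 5, was dim. The rise was not uniform: Zeb1 was at 10.55 in TPC20223 and 10.35 in TPC18645, and Zeb2 at 9.34 and 8.99 in the same lines. Snai2, a repressor of epithelial genes, had log2 signals of 9.59 in K459 and 9.72 in TCPA18654, against 9.64 in TPC18645 and 11.52 in TPC20223. Twist1, a helix-loop-helix factor, had 8.32 in K459 and 6.67 in TCPA18654, against 7.01 in TPC18645 and 9.11 in TPC20223. Prrx1, a mesenchymal homeobox factor, was at 11.73 in TPC20223 and 9.58 in TPC18645, and Snai1 at 10.56 and 9.24 in the same lines. K459, the line with the highest Krt7, Krt8, Krt18, Krt19 and Krt20, had more Twist1 than TCPA18654. The order of Twist1 over the lines was thus not the reverse of the keratins. K459 was above TCPA18654 for 7 of the 9 factors and below it for 2. Twist2, among these 2, had 9.55 in K459 and 9.82 in TCPA18654, against 10.13 in TPC18645 and 10.69 in TPC20223. Its order was the reverse of that of Krt7, Krt8, Krt18 and Krt19. For TPAC against TPC cells 0 of the 9 had a higher mean, with a median of -0.57 and 0 called by limma. This direction rested on TPC20223, without which 5 of the 9 had higher means and the median was 0.02.

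Of 18 measured epithelial regulators, 6 were at least 2-fold lower in TPC20223 than in TPC18645 and 1 was higher, with a median of -0.25. Elf3, an epithelial ETS factor, had log2 signals of 10.81 in K459 and 9.51 in TCPA18654, against 9.87 in TPC18645 and 6.47 in TPC20223. Ehf, another epithelial ETS factor, had 10.73 in K459 and 8.23 in TCPA18654, against 7.92 in TPC18645 and 6.56 in TPC20223. Ehf stood in the same order over the lines as Krt7. Elf3 and Ehf lay below the dim level in TPC20223, so the sizes of their differences from this line are not exact. Foxa1, an endodermal forkhead factor, was at 7.56 in TPC20223 and 8.72 in TPC18645. Tfap2a went the other way, with 8.74 in K459 and 6.29 in TCPA18654, against 6.89 in TPC18645 and 9.45 in TPC20223. For TPAC against TPC cells 15 of the 18 had higher means, with a median of 0.23 and 0 called by limma (median 0.18 without TPC20223 and 0.59 without TCPA18654).

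Part of the markers of ductal epithelium and of fibroblasts also set TPC20223 apart from the other lines. Of 16 measured ductal and epithelial markers, 4 were at least 2-fold lower in TPC20223 than in TPC18645 (Cdh1, Tspan8, Muc1 and Spint2). Only 1, the dim Cftr, was at least 2-fold higher, and the median was -0.33. The 4 lower ones lay at or below the dim level in TPC20223, so the sizes of their differences are not exact. More of the 16 set K459 apart, with 11 at least 2-fold higher than in TPC18645 and a median of 1.365. Cdh1 (E-cadherin) had log2 signals of 12.62 in K459 and 12.68 in TCPA18654, against 12.57 in TPC18645 and 6.96 in TPC20223. The summed linear signal of the 16 markers was 22000 in K459 and 12900 in TCPA18654, against 12000 in TPC18645 and 3670 in TPC20223. Fibroblast and stellate markers ran the other way: of 15, 8 were at least 2-fold higher in TPC20223 than in TPC18645 and 1 (Dcn) was lower. Their summed signal was 10000 in K459 and 9520 in TCPA18654, against 12200 in TPC18645 and 36000 in TPC20223. Col1a1 (collagen I) was at 13.02 in TPC20223 and 8.53 in TPC18645, and periostin (Postn) at 11.71 and 5.99 in the same lines. For TPAC against TPC cells the median of these markers was -0.57, and without TPC20223 it was 0.11, whereas that of the ductal and epithelial markers was 1.19, with 0.74 without TPC20223 and 0.22 without K459. Of the 15, 11 were not dim, among them the actin gene Acta2, at 11.66 in K459 and 12.09 in TCPA18654, against 12.64 in TPC18645 and 13.24 in TPC20223. Lum and Fap were dim, at 4.27 to 4.78 in the 4 lines. The endothelial sum was 675 and 763 in K459 and TCPA18654, against 722 in TPC18645 and 4540 in TPC20223, where Eng, also made by mesenchymal cells, was at 11.92 and Pecam1 at 6.02. The leukocyte sum was 993 in TPC20223, against 1790 to 2330 in the other 3 lines, with Cd14 at 6.66 in TPC20223 and 9.59 to 10.53 in the others and Cd68 at 6.66 and 7.66 to 8.60. Ptprc, the common leukocyte antigen, was at 5.61 to 6.02 in all 4 lines. Acinar sums were 1090 and 1200 in K459 and TCPA18654, against 1630 and 1240 in TPC18645 and TPC20223, and Schwann cell sums were 1460 and 1080, against 1120 and 796. The part of other cell types in the keratin differences was not tested.

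**Figure D4:**
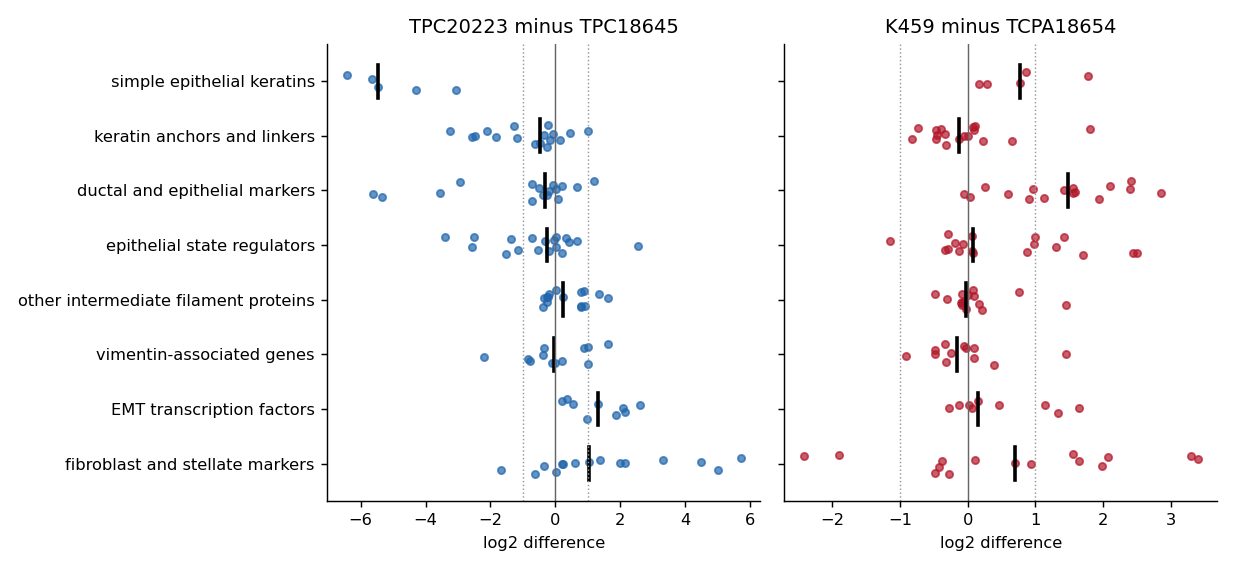
Log2 difference between the lines of 1 genotype (x axis), TPC20223 minus TPC18645 (left) and K459 minus TCPA18654 (right), for the genes of 8 lists (rows); points are genes, black bars are medians and dotted lines mark 2-fold. The 5 simple keratins have a median of -5.46 on the left, EMT factors 1.32 and fibroblast markers 1.04.

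Between the TPAC lines the picture was different. K459 exceeded TCPA18654 at least 2-fold in 10 of the 16 ductal and epithelial markers, with a median difference of 1.49, whereas of the 5 simple keratins only Krt7 passed 2-fold, with a median of 0.77. Cdh1, Krt8 and Krt18 differed between these lines by less than 0.3. Muc1, a mucin of the apical membrane, was at 11.62 in K459 and 10.06 in TCPA18654, and Krt7 at 12.13 and 10.35. K459 was also at least 2-fold above TCPA18654 in 6 of the 15 fibroblast and stellate markers and below it in 2. EMT factors were higher in K459 for 7 of 9, at least 2-fold for 3.

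Genes whose profile over the 4 lines lay closest to each keratin were found among 2538 genes that were not dim and had a range of 1 or more, by the Euclidean distance between centered log2 profiles. With 4 lines, such likeness says little beyond the order and size of the steps. Nearest to Krt8 were Tspan8 (distance 0.12), a tetraspanin, Gsta4, a glutathione transferase, and Cdh1. Nearest to Krt7 were Muc1 (0.18), the tight junction gene Cldn6, and Nostrin. Nearest to Krt18 were Anxa10 (0.46), an annexin of gastric epithelium, Ctse, a protease gene of gastric epithelium, and Sptssb. Krt19 had Vsig1 (0.53), Krt8 and Anxa10 beside it, and Krt20 had Palmd (0.13), the gastrokine gene Gkn2, and Pcbd1. Gkn2 had log2 signals of 10.50 in K459 and 9.98 in TCPA18654, against 9.47 in TPC18645 and 5.24 in TPC20223. The dim Krt23 lay closest to Fgd4 (0.12), Snap25 and Tns4, and Krt80 to Ugdh (0.08), Anxa3 and Akap5. Krt14, with its high signal in TPC20223, lay closest to Ankrd29 (0.04), Nfil3 and Plekhg5. Krt17 and Vim had ranges of 0.15 and 0.12 and were not searched.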

How the data were processed

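RNA of 4 lines was hybridised to 1 array per line. The authors deposited log2 signals from RMA, run in Affymetrix Expression Console 1.4 according to the submitters' processing notes. RMA gives the arrays nearly the same distribution, so a difference in total RNA cannot be seen, and the number of arrays limits the precision. Array batches and filters are not given in the sources used here.

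Of 28941 transcript clusters, 21789 have 1 gene symbol in the platform annotation, 1621 several and 5531 none here. Clusters with several symbols were not named. Where a gene had several clusters, the one of highest mean signal was kept. Names were checked by Entrez number against RefSeq (21698 matched).

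TPAC and TPC lines were compared over 19938 genes with limma 3.58.1 in R 4.3.3 (eBayes, two-sided), with no filter on low signal. A gene was called at a Benjamini-Hochberg adjusted p of 0.05 and a difference of 0.58 on the log2 scale. The study states these limits for its comparison of TPAC with KPC cells, a genotype that is not among these arrays. The limma step and the methods' test were checked on simulated data with the same small spread for every gene. That check does not show how often a difference would be called in genes that vary as widely as the simple keratins. The 10 genes and the 13 other lists were chosen with earlier results of these data known, and list medians carry no test. All 10 genes are named; from the other keratins those not dim with a range of 1 or more; from each other list up to 4 genes of widest range; and per gene the 3 of closest profile. Genes named beyond this (Krt15, Krt78, Krt87, Krt12, Krt5, Des, Ina, Zeb1, Zeb2, Twist2, Foxc2, Cftr, Dcn, Acta2, Ptprc, Pecam1, Lum, Fap) were chosen after their values were seen. Alternatives were cyclic loess, arrays set to a common median, averaging of a gene's clusters, other thresholds, the methods' test and leaving out each line.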

Additional observations from a re-analysis of the deposited data

How the results depend on the processing

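Over 13 alternatives limma or the methods' test called 0 of the 10 genes and 0 of all genes. Where a line was left out, the lone array of its genotype was taken to vary like the others. The log2 difference turned for Krt17 without K459 (0.06; -0.09 to 0.06 over the lines left out) and for Krt80 without TPC20223 (-0.16; -0.16 to 1.43), and the other 8 genes kept their direction under every alternative run. Counts past a threshold between lines moved for K459 and TPC18645 (4 genes at a log2 difference of 0.58, against 1 at 2-fold), for K459 and TPC20223 (5 at a log2 difference of 2, against 8) and for K459 and TCPA18654 (4 at 0.58 and 0 at 2, against 1). The groups did not overlap, with TPAC lower, for 2 genes under cyclic loess (Krt17 and Vim), and for 1 to 3 genes with 1 line left out, against 25.9% to 35.0% of all genes; with TPAC higher this held for 5 to 7 genes, against 26.5% to 43.2%. These alternatives on overlap were chosen after seeing the data. Leaving out a line leaves fewer samples to overlap and cannot undo an order already present, so these counts could only stay or rise. The cause of the other changes was not tested. No paired analysis was possible because the labels give no replicate numbers that link TPAC lines with TPC lines. The size of a difference is not exact for the dim genes Krt17 and Krt23. Nor is it exact for Krt7, Krt18, Krt19 and Krt20 where it rests on TPC20223, whose signals for them are at or below the dim level. The same holds for Krt14, whose signals in the lines other than TPC20223 were below that level. It also holds outside the 10 genes, wherever a signal in a compared line was at or below that level. Among such genes are Krt13, Krt79, Dsg2, Ppl, Elf3, Ehf, Cdh1, Tspan8, Muc1 and Spint2.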
